A study of Homo sapiens with 12 samples.

Results

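Transcript levels of 40 genes of protein folding, quality control and degradation in the endoplasmic reticulum were examined in pancreatic carcinoma cells. In these cells the transcripts of the RNA-binding proteins Musashi-1 and Musashi-2 were targeted for knockdown, singly and together. The 40 genes were taken by symbol from a fixed list, out of 24528 genes in the table, and all 40 passed the low-count filter that left 15021 genes for testing. The cells were MIA PaCa-2, an established human line derived from a pancreatic carcinoma, infected for 72 h with lentivirus carrying a short hairpin RNA (shRNA). Each of 4 groups had 3 RNA sequencing libraries: a scrambled control shRNA, an shRNA against Musashi-1 from a virus that also marks cells with GFP (Msi1 knockdown), an shRNA against Musashi-2 from a virus marked with Tomato Red (Msi2 knockdown), and both viruses together (double knockdown). Knockdown cells were sorted on their fluorescence, with double-positive cells taken for the double knockdown. The libraries started from 200 ng of total RNA. Not given in the sources used here were the mark and the gate of the control cells and the number of hairpins per target. The labels do not say whether the replicates came from separate cultures, so the spread behind the p-values is that between these libraries and may be technical.

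Proteins that enter the endoplasmic reticulum through the Sec61 channel are folded by chaperones such as BiP (HSPA5) and by the lectins calnexin and calreticulin, while disulfide isomerases of the thioredoxin fold make and rearrange their disulfide bonds. Chains that fail to fold are trimmed by the EDEM mannosidases, recognised by lectins such as OS9 and passed through the SEL1L-SYVN1 ligase to the proteasome. The sensors ATF6, IRE1 (ERN1) and PERK (EIF2AK3) detect unfolded chains, and ATF6 and spliced XBP1 raise the transcription of many of these genes in the unfolded protein response. TXNDC5 is a member of the isomerase family with several thioredoxin domains.

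Promoters of these genes are known for the response elements of ATF6 and XBP1, so 3 motifs were searched on both strands in the 300 bases from 250 before to 50 after each RefSeq start (GRCh38.p14), for 37 members and 27305 genes in all. PDIA3, DERL1 and DERL3 had no entry. The ER stress response element, CCAAT and CCACG separated by 9 bases, was found for 7 members (HSPA5, HSP90B1, CALR, CANX, CRELD2, PDIA6 and XBP1), or 18.9% of the 37, and for 0.0916% of all genes. The second form, ATTGG and CCACG separated by 1 base, was found for HYOU1, SDF2L1 and HERPUD1, or 8.11%, and for 0.0696% of all genes. The XBP1 element TGACGTGG was found for HYOU1, DNAJC10, TXNDC5 and TXNDC11, or 10.8%, and for 0.927% of all genes. A match describes letters and not a bound site. The following 4 stretches of 250 bases before a start, all on the minus strand and printed 5′ to 3′ with the matched motifs in capitals, show a chaperone that rose moderately (HSPA5, chr9:125241344-125241593), the chaperone that rose most in the Msi1 knockdown (HYOU1, chr11:119057206-119057455), an isomerase that rose (PDIA6, chr2:10812786-10813035) and the isomerase that fell (TXNDC5, chr6:7910078-7910327).
HSPA5: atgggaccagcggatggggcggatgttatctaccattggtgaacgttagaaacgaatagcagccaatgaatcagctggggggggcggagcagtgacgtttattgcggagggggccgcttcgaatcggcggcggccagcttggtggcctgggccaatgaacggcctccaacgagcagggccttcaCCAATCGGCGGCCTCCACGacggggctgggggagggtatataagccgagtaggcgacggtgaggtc
HYOU1: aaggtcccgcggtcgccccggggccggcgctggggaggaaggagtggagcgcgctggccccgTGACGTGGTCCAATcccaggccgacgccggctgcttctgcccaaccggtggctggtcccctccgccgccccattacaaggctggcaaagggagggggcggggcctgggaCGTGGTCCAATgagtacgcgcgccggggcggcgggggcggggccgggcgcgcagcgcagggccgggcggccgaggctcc
PDIA6: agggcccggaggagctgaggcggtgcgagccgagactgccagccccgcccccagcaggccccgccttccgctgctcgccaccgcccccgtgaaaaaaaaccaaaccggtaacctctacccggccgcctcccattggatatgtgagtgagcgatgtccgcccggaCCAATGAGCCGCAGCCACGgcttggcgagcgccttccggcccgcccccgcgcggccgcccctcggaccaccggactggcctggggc
TXNDC5: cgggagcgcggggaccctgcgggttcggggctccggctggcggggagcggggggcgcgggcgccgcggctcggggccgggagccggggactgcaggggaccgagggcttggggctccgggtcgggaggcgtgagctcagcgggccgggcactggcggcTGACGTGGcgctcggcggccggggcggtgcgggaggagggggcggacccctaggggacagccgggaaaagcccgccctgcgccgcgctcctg
In HSPA5 the motif began 66 bases before the start and in PDIA6 86 bases before it. HYOU1 held the second form 2 times, beginning 185 and 79 bases before the start, and the farther copy overlapped the XBP1 element. In TXNDC5 the XBP1 element began 92 bases before the start. TXNDC5 and PDIA6 each have 2 RefSeq starts, and the other start of each held none of the motifs.

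Total counts, in units of 1e6, ran from 10.95 to 35.04 per control library. The ranges were 26.76 to 38.92 for Msi1 knockdown libraries, 39.69 to 53.01 for Msi2 and 39.85 to 56.12 for double knockdown libraries. Levels are given as counts per 1e6 after TMM scaling (CPM), as mean ± SD over 3 libraries. MSI1 measured 4.53, 1.84, 6.14 and 1.71 CPM in control, Msi1, Msi2 and double knockdown. MSI2 measured 82.72, 53.98, 14.97 and 11.76 CPM in that order, so both targets were lowest where the labels place their shRNA. MSI2 was also lower than control in the Msi1 knockdown (log2 -0.61), and MSI1 higher than control in the Msi2 knockdown (log2 0.41). Both differences passed the edgeR test described below, so each single knockdown differed from control in both Musashi transcripts. KRT8 (1187 ± 30.9 CPM in control) and VIM (5868 ± 21.4 CPM) were present, as the line is known to show, and CDKN2A, known to be deleted in it, had 0 counts in 11 of 12 libraries. Of the markers of other secretory cells, PNLIP had 0 counts in all 12 libraries and the plasma cell genes MZB1, JCHAIN and IRF4 stayed under 0.6 CPM. None of the 6 pancreatic acinar markers listed passed the low-count filter. Of 3 endothelium markers 2 passed it, and 1 was lower than control in the double knockdown by the edgeR test. Of 3 blood markers 1 passed it, and this marker was lower only in the double against the Msi1 knockdown. In these bulk samples fewer cells of a type and less RNA per cell cannot be told apart. The largest common difference between replicates, taken from deviations within groups, held 54.5% of that variance, and its score ran from -1.54 to -1.05 in the double knockdown and from -0.39 to 1.38 in the other 9 libraries. These ranges did not overlap, so for the double knockdown this library trend and the knockdown cannot be told apart. Counts from a fit with the trend score in the model (trend-adjusted) are given for the 40 genes as a set, with values for some single genes. The role groups and the pathway lists were counted without the trend score only, and their double knockdown results carry this limit.

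Compared per length of the longest transcript, the most abundant members in control were calreticulin (CALR, 331 ± 32 CPM per kb), HSP90B1 (GRP94, 306 ± 37) and calnexin (CANX, 278 ± 18). Among the isomerases P4HB was highest at 202 ± 19 CPM per kb, followed by PDIA6 at 186 ± 11, neighbours that differed by less than their spread. PDIA4 (113 ± 8.2 CPM per kb), PDIA3 (106 ± 12) and TXNDC5 (101 ± 7.4) came next and also lay within their spread of each other. ERP29 stood at 71.5 ± 7.7 CPM per kb, and PDIA5, ERP44 and TXNDC11 at 22.5 ± 2.4, 16.3 ± 1.2 and 6.02 ± 0.38. In the Msi1 knockdown TXNDC5 stood at 28.6 ± 4.7 CPM per kb, below PDIA5 at 41.5 ± 3.5. The lowest members were the sensor ERN1 (2.31 ± 0.23 CPM per kb) and DERL3, which had 2 to 10 counts per library.

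In the Msi1 knockdown 26 of the 40 genes rose, 1 fell and 13 did not pass the test, with a median log2 change of 0.34. Of all 15021 genes tested 18.5% were higher and 20.9% lower (39.3% called in either direction), with a median of 0.00. The single gene that fell was TXNDC5. In the Msi2 knockdown 18 genes rose and 2 fell, with a median of 0.18, beside 16.7% of all genes higher and 13.6% lower (30.3% called). In the double knockdown 17 rose and 9 fell, with a median of 0.07, beside 26.6% higher and 25.3% lower (51.9% called). Calls are adjusted p-values below 0.05 in the edgeR quasi-likelihood test, adjusted over all genes tested, and the 3 comparisons share the same control libraries. Trend-adjusted, the counts of higher and lower members were 27 and 3 in the Msi1 (43.1% of all genes called), 24 and 2 in the Msi2 (42.7%) and 19 and 3 in the double knockdown (38.6%). With a correction for transcript length, chosen after seeing the data, they were 25 and 1 (41.1%), 19 and 2 (31.9%) and 17 and 7 (51.1%). Trend-adjusted, SDF2L1, ERN1, EIF2AK3 and SEC61B were also called in the Msi1 knockdown, and SYVN1 was not. In the Msi2 knockdown UGGT1, DNAJC10, SYVN1, HERPUD1, EDEM3 and OS9 were also called when trend-adjusted. The plot of log2 changes by role shows TXNDC5 far to the left of every other isomerase in 2 of the 3 knockdowns.

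**Figure D1:**
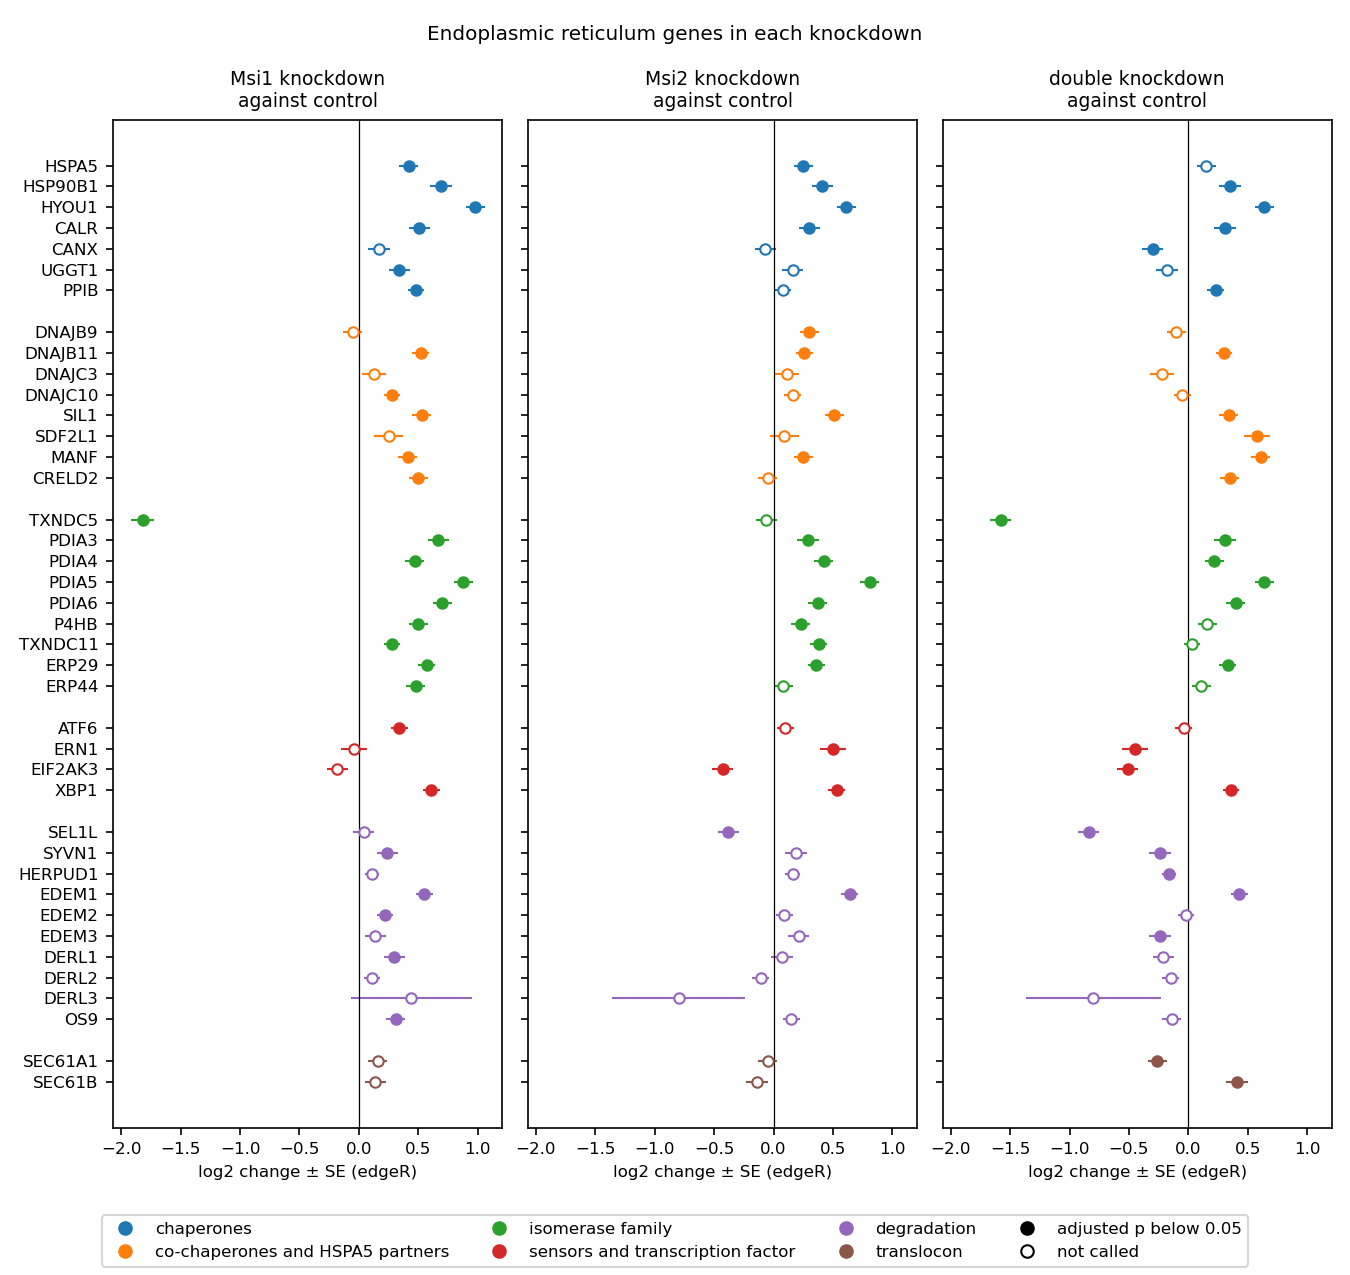
Log2 change against control (horizontal axis, point ± SE from edgeR) for the 40 genes in the Msi1, Msi2 and double knockdown, coloured by role; filled points have an adjusted p below 0.05. TXNDC5 lies at -1.82 and -1.58 in the Msi1 and double knockdown and at -0.06 in the Msi2 knockdown, while most other isomerases lie to the right of 0.

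TXNDC5 measured 278.2, 321.5 and 295.0 CPM in the control libraries and 69.2, 95.9 and 88.89 CPM in the Msi1 knockdown. It measured 273.2, 291.6 and 292.4 CPM in the Msi2 knockdown, and 109.1, 96.26 and 94.56 CPM in the double knockdown. All 6 libraries with the Musashi-1 shRNA were thus below all 6 without it. Those 6 libraries also carried the GFP-marked virus, and a hairpin or virus effect cannot be told apart from the Musashi-1 knockdown here. The fall was 3.52-fold in the Msi1 knockdown (log2 -1.82 ± 0.10, adjusted p = 6.5e-11) and 2.98-fold in the double knockdown (log2 -1.58 ± 0.09, adjusted p = 3.9e-10). No difference from control was called in the Msi2 knockdown (log2 -0.06 ± 0.09, adjusted p = 0.667), whose libraries overlapped with control. TXNDC5 was 3.38-fold higher in the Msi2 than in the Msi1 knockdown (log2 1.76 ± 0.10, adjusted p = 1.5e-10). Between the double and the Msi1 knockdown the difference was small (log2 0.24 ± 0.09, adjusted p = 0.036), the libraries overlapped, and the call was lost with upper-quartile scaling (adjusted p = 0.116), without double replicate 1 or 2 (0.172 and 0.0654) and without Msi1 replicate 1 (0.186). The trend-adjusted falls were -1.93 in the Msi1 and -1.40 in the double knockdown on the log2 scale (adjusted p = 7.6e-07 and 3.1e-05). BLOC1S5, the neighbouring gene with which TXNDC5 is known to form a read-through transcript, measured 20.52 ± 2.28, 17.83 ± 1.96, 17.11 ± 1.59 and 18.99 ± 0.917 CPM in control, Msi1, Msi2 and double knockdown and was not called against control in any of them (adjusted p = 0.127, 0.0504 and 0.382). The read-through transcript itself was not analysed here.

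The other 8 isomerases all rose in the Msi1 knockdown, with a median log2 change of 0.53, beside 39.3% of all genes called. PDIA5, an isomerase known to act on ATF6, measured 45.35, 55.79 and 49.43 CPM in control and 83.9, 95.29 and 98.66 CPM in the Msi1 knockdown, a rise of 0.88 ± 0.08 (adjusted p = 5.4e-08). PDIA6 (P5) went from 472.1, 531.2 and 489.5 CPM to 743.2, 839.9 and 847.9 CPM, a rise of 0.70 ± 0.08 (adjusted p = 8.8e-07). PDIA3 (ERp57), which folds glycoproteins with calnexin and calreticulin, went from 384.7, 443.2 and 351.7 CPM to 560.2, 666 and 658.4 CPM, a rise of 0.67 ± 0.09 (adjusted p = 5.4e-06). In these 3 genes every knockdown library was above every control library. ERP29, a thioredoxin-fold protein that lacks the active-site cysteine pair, rose by 0.57 ± 0.07 from 117.3, 139.4 and 115.2 CPM to 179.9, 188.2 and 185.8 CPM (adjusted p = 4.0e-06). P4HB, the archetypal isomerase PDI and a subunit of prolyl 4-hydroxylase, rose by 0.50 ± 0.08 from 512.1, 579.4 and 482.5 CPM to 675.5, 761.4 and 782.9 CPM (adjusted p = 7.0e-05). ERP44, which retains client proteins early in the secretory pathway, rose by 0.48 ± 0.08 from 75.93, 85.51 and 75.5 CPM to 97.44, 117.9 and 115.6 CPM (adjusted p = 5.7e-05). Again no library of the knockdown reached down to the control range. PDIA4 (ERp72) rose by 0.47 ± 0.08 from 310.4, 355.8 and 320.2 CPM to 403.3, 481.1 and 481.4 CPM (adjusted p = 1.0e-04). TXNDC11 rose least, by 0.28 ± 0.07, from 19.84, 19.8 and 17.71 CPM to 22, 24.4 and 23.75 CPM (adjusted p = 0.00419). Of the 40 genes, 37 had their lowest Msi1 knockdown value in replicate 1, which was the lowest of its group for 41.2% of all genes tested. Likewise 34 of the 40 had their highest control value in replicate 2 (the highest for 36.8% of all genes) and 34 their lowest Msi2 knockdown value in replicate 1 (the lowest for 23.2%).

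In the Msi2 knockdown 7 of these 8 isomerases (87.5%) rose, with a median log2 change of 0.36, beside 30.3% of all genes called. PDIA5 again moved most, to 81.05, 92.6 and 89.44 CPM (log2 0.81 ± 0.08, adjusted p = 4.1e-07). PDIA4 reached 409.8, 463.8 and 445.2 CPM (0.42 ± 0.08, adjusted p = 5.0e-04) and TXNDC11 24.19, 25.4 and 25.62 CPM (0.38 ± 0.07, adjusted p = 3.9e-04). In all 3 the Msi2 libraries lay above the control libraries. PDIA6 measured 576.1, 669.7 and 677.7 CPM (0.37 ± 0.08, adjusted p = 0.0015) and ERP29 150.1, 162.9 and 165.8 CPM (0.36 ± 0.07, adjusted p = 8.0e-04). PDIA3 measured 434.4, 501.9 and 503 CPM (0.29 ± 0.09, adjusted p = 0.018) and P4HB 587, 648.3 and 616.6 CPM (0.23 ± 0.08, adjusted p = 0.0337), 2 small rises whose calls were lost without control replicate 1 (adjusted p = 0.0844 and 0.136), without control replicate 3 (0.119 and 0.176) and without Msi2 replicate 2 or 3 (PDIA3 0.0525 and 0.053, P4HB 0.103 and 0.0533). ERP44 was not called, at 76.41, 86.05 and 88.35 CPM (0.08 ± 0.08, adjusted p = 0.475).

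In the double knockdown 5 of the 8 (62.5%) rose and none fell, with a median log2 change of 0.27, beside 51.9% of all genes called. PDIA5 measured 79.77, 74.99 and 79.56 CPM (0.64 ± 0.08, adjusted p = 2.5e-06), PDIA6 668.2, 632.2 and 663.7 CPM (0.40 ± 0.08, adjusted p = 3.5e-04) and ERP29 166.9, 150.7 and 152.6 CPM (0.33 ± 0.07, adjusted p = 7.4e-04). PDIA3 rose by 0.31 ± 0.09 to 481.8, 487.2 and 491.5 CPM (adjusted p = 0.00652, and 0.0587 without control replicate 3). PDIA4 rose by 0.22 ± 0.08 to 397.6, 365.2 and 389.5 CPM (adjusted p = 0.0239), which no longer passed without control replicate 1 or 3 or double replicate 1 or 3 (adjusted p = 0.111, 0.0893, 0.0839 and 0.0865). P4HB (611.9, 549.6 and 600.6 CPM, adjusted p = 0.0994), ERP44 (84.49, 84.95 and 87.36 CPM, adjusted p = 0.227) and TXNDC11 (19.22, 20.57 and 19.57 CPM, adjusted p = 0.702) were not called. In the trend-adjusted fit P4HB (0.33, adjusted p = 1.1e-04) and ERP44 (0.26, adjusted p = 0.00699) passed.

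**Figure D2:**
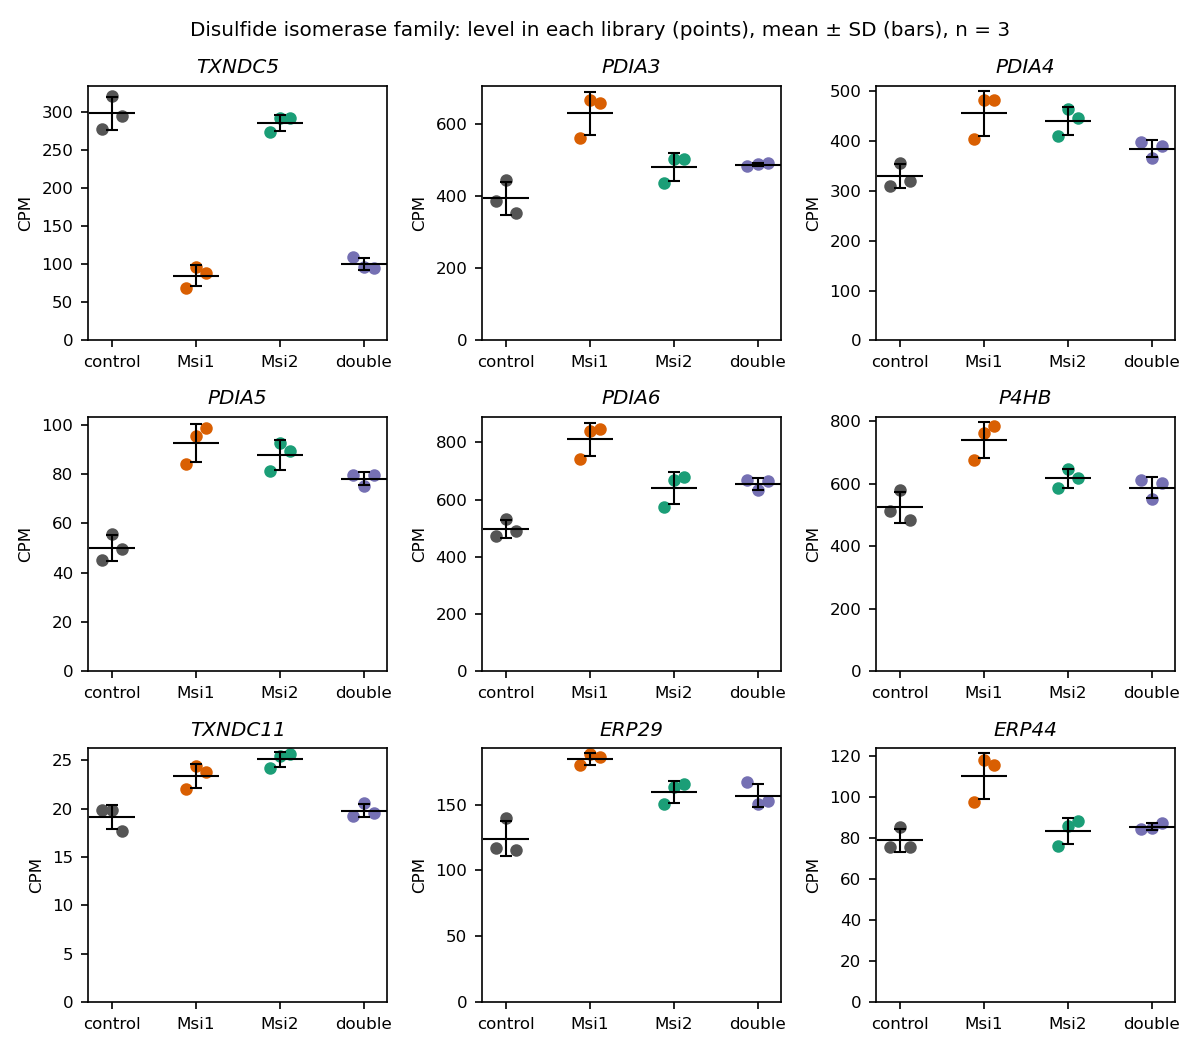
Level in CPM (vertical axis, from 0) of the 9 isomerase family genes in each library of the 4 groups, with mean ± SD bars (n = 3). TXNDC5 sits near 298 CPM in control and 286 CPM in the Msi2 knockdown and near 85 and 100 CPM in the Msi1 and double knockdown; the other 8 are lowest in the control libraries by group mean.

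The share of TXNDC5 in the summed counts of the 9 isomerase genes sets the contrast within each library, free of scaling between libraries. It was 12.6%, 12.7% and 13.4% in control (12.9 ± 0.47%) and 2.44%, 2.93% and 2.71% in the Msi1 knockdown (2.69 ± 0.25%). The Msi2 knockdown gave 10.5%, 9.91% and 10.1%, and the double knockdown 4.17%, 3.91% and 3.67% (3.91 ± 0.25%). No 2 groups overlapped, so the share was lower than in control in all 3 knockdowns. The log2 ratio of TXNDC5 to the sum of the other 8 differed from control by -2.42 in the Msi1, -0.39 in the Msi2 and -1.86 in the double knockdown. The double knockdown differed by 0.56 from the Msi1 and by -1.47 from the Msi2 knockdown. For each of the 6 pairs of groups the two-sided exact permutation test gave p = 0.1 (adjusted p = 0.1), the smallest value that 3 libraries against 3 allow. In the Msi2 knockdown, where the share was lower than in control, TXNDC5 itself was not called and 7 of the other 8 isomerases were higher.

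**Figure D3:**
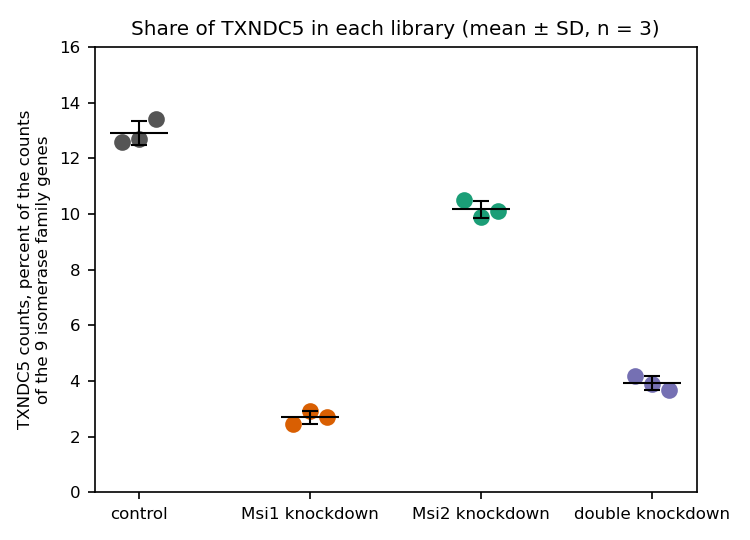
TXNDC5 counts as a percentage of the counts of all 9 isomerase family genes (vertical axis, from 0) in each library, with mean ± SD bars (n = 3 per group). Shares lie between 12.6% and 13.4% in control, between 2.44% and 2.93% in the Msi1 knockdown, and between these ranges in the other groups.

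Of the 7 chaperones 6 rose in the Msi1 knockdown (median log2 change 0.48), 4 in the Msi2 knockdown (0.25) and 4 in the double knockdown (0.23), where 1 fell. The shares called were 85.7%, 57.1% and 71.4%, beside 39.3%, 30.3% and 51.9% of all genes. HYOU1 (GRP170), a nucleotide exchange factor for BiP, measured 152.4, 178.8 and 163 CPM in control and 280.2, 344.8 and 349.4 CPM in the Msi1 knockdown (log2 0.98 ± 0.08, adjusted p = 1.7e-08). Its values were 248.7, 261.6 and 243 CPM in the Msi2 knockdown (0.61 ± 0.08, adjusted p = 1.3e-05) and 265, 246 and 260.8 CPM in the double knockdown (0.64 ± 0.08, adjusted p = 2.6e-06). All 9 knockdown libraries were above the control libraries. HSP90B1, the HSP90 chaperone of the endoplasmic reticulum, measured 880.2, 1056 and 849.2 CPM in control and 1349, 1580 and 1570 CPM in the Msi1 knockdown (0.69 ± 0.09, adjusted p = 6.6e-06). It reached 1120, 1310 and 1282 CPM in the Msi2 knockdown (0.41 ± 0.09, adjusted p = 0.00183) and 1167, 1182 and 1208 CPM in the double knockdown (0.35 ± 0.09, adjusted p = 0.00322), again above every control library. Calreticulin, the soluble lectin, rose in all 3 knockdowns (log2 0.51, 0.30 and 0.31). BiP rose by 0.42 ± 0.08 in the Msi1 and 0.25 ± 0.08 in the Msi2 knockdown and was not called in the double knockdown (0.15 ± 0.08, adjusted p = 0.135). The proline isomerase PPIB rose in the Msi1 and double knockdown (0.48 and 0.23), and UGGT1, which marks unfolded glycoproteins for another round with the lectins, rose in the Msi1 knockdown (0.34) and was not called in the other comparisons with control (0.16 and -0.18). The membrane lectin calnexin fell in the double knockdown (-0.30 ± 0.09, adjusted p = 0.00733) and was not called in the single ones (0.17 and -0.07). Trend-adjusted, the fall of calnexin in the double knockdown was not called (-0.08, adjusted p = 0.289), whereas BiP passed as higher (0.31, adjusted p = 0.00173). Length-corrected, the rises of calreticulin and PPIB in the double knockdown were not called. In the Msi2 knockdown the calls of BiP and calreticulin were lost without control replicate 1 (adjusted p = 0.171 and 0.0608) or 3 (0.0675 and 0.0792), BiP also without Msi2 replicate 2 or 3 (0.0879 and 0.0673), and in the double knockdown that of PPIB without control replicate 1 or 3 or double replicate 1 or 3 (0.0521, 0.0519, 0.0605 and 0.0526).

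Among the 8 co-chaperones and partners of BiP 5 rose in the Msi1 knockdown (median log2 change 0.35), 4 in the Msi2 knockdown (0.21) and 5 in the double knockdown (0.32), and none fell. The shares called were 62.5%, 50% and 62.5%, beside 39.3%, 30.3% and 51.9% of all genes. MANF, a secreted factor that binds BiP, measured 27.3, 27.45 and 20.94 CPM in control, 33.08, 34.72 and 35.04 CPM in the Msi1 knockdown and 29.01, 31.09 and 31.53 CPM in the Msi2 knockdown. Its highest values were in the double knockdown, at 40.92, 38.08 and 38.51 CPM (log2 0.61 ± 0.08 against control, adjusted p = 4.2e-06). The rise was 0.41 ± 0.08 in the Msi1 knockdown (adjusted p = 4.0e-04) and 0.25 ± 0.08 in the Msi2 knockdown (adjusted p = 0.0234), where it was lost without control replicate 3 (adjusted p = 0.126) and without Msi2 replicate 2 or 3 (0.053 and 0.0618). SDF2L1, a partner of the co-chaperone DNAJB11, measured 6.895, 5.188 and 7.28 CPM in control, 7.515, 7.427 and 7.553 CPM in the Msi1 knockdown and 6.048, 6.994 and 7.1 CPM in the Msi2 knockdown. The double knockdown libraries, at 10.34, 9.331 and 8.63 CPM, were above all others (0.58 ± 0.11 against control, adjusted p = 3.1e-04), and neither single knockdown was called (adjusted p = 0.11 and 0.61). When trend-adjusted, SDF2L1 was called in the Msi1 knockdown. SIL1, another exchange factor of BiP, and DNAJB11 rose in all 3 knockdowns (SIL1 by 0.53, 0.51 and 0.34, DNAJB11 by 0.52, 0.26 and 0.30). CRELD2 rose in the Msi1 and double knockdown (0.50 and 0.35), the disulfide reductase DNAJC10 in the Msi1 knockdown (0.28) and DNAJB9, known to repress IRE1, in the Msi2 knockdown (0.30). In the Msi2 knockdown the calls of DNAJB9 and DNAJB11 were lost without control replicate 1 (adjusted p = 0.0823 and 0.0709), and that of DNAJB11 without control replicate 3 (0.0662). DNAJC3, known to restrain PERK, was not called in any comparison with control (0.13, 0.11 and -0.22). With the replicate number as a block DNAJC10 also passed in the Msi2 knockdown (0.16, adjusted p = 0.0417).

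XBP1, the transcription factor whose mRNA is spliced by IRE1, measured 95.38, 104.7 and 93.47 CPM in control and 143.1, 151.4 and 155.2 CPM in the Msi1 knockdown (log2 0.61 ± 0.07, adjusted p = 9.6e-07). It reached 127.5, 145.7 and 151.3 CPM in the Msi2 knockdown (0.53 ± 0.07, adjusted p = 1.1e-05) and 129.5, 121.6 and 126 CPM in the double knockdown (0.36 ± 0.07, adjusted p = 2.6e-04). All knockdown libraries were above control. The counts per gene do not separate spliced from unspliced XBP1. The 3 sensors moved differently from one another. ATF6 measured 105.9, 117.2 and 99.14 CPM in control and 121.9, 141 and 145.9 CPM in the Msi1 knockdown (0.34 ± 0.07, adjusted p = 0.00111), and was not called in the Msi2 (109.2, 121.3 and 114.8 CPM) or double knockdown (101.4, 107 and 106.1 CPM). ERN1 measured 16.34, 20.03 and 18.16 CPM in control and 14.7, 19.56 and 18.66 CPM in the Msi1 knockdown, which was called only when trend-adjusted. ERN1 rose to 25.55, 28.09 and 23.39 CPM in the Msi2 knockdown (0.50 ± 0.11, adjusted p = 0.00121) and fell to 12.11, 13.55 and 14.43 CPM in the double knockdown (-0.45 ± 0.11, adjusted p = 0.0021). The fall was not called in the trend-adjusted fit (-0.10, adjusted p = 0.443). EIF2AK3 measured 23.88, 26.37 and 19.68 CPM in control and 18.57, 21.98 and 22.44 CPM in the Msi1 knockdown, which was not called (-0.18 ± 0.09, adjusted p = 0.143). There EIF2AK3 was called without control replicate 3 (-0.25, adjusted p = 0.0402) and in the trend-adjusted fit. It fell to 16.56, 18.07 and 17.97 CPM in the Msi2 knockdown (-0.43 ± 0.09, adjusted p = 0.00148) and to 15.8, 17.95 and 16.4 CPM in the double knockdown (-0.51 ± 0.09, adjusted p = 1.8e-04), in both below every control library.

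Of the 10 degradation genes 5 rose in the Msi1 knockdown and none fell (median log2 change 0.23), 1 rose and 1 fell in the Msi2 knockdown (0.12), and 1 rose and 4 fell in the double knockdown (-0.18). The shares called were 50%, 20% and 50%, beside 39.3%, 30.3% and 51.9% of all genes. With only 10 genes the Msi2 share did not exceed that of all genes, and the double knockdown share was near it. SEL1L, the adaptor of the SYVN1 ligase, measured 76.37, 92.47 and 83.95 CPM in control and 73.06, 94.41 and 93.29 CPM in the Msi1 knockdown, which was not called (0.04 ± 0.09, adjusted p = 0.73). It fell to 61.88, 69.38 and 63.02 CPM in the Msi2 knockdown (-0.38 ± 0.09, adjusted p = 0.0034) and to 44.38, 47.05 and 50.27 CPM in the double knockdown (-0.84 ± 0.09, adjusted p = 5.8e-07). The double knockdown libraries were the lowest of all 12. EDEM1, a mannosidase-like protein that marks misfolded glycoproteins, measured 46.25, 54.84 and 45.75 CPM in control and 67.08, 74.55 and 74.48 CPM in the Msi1 knockdown (0.55 ± 0.07, adjusted p = 5.5e-06). It rose to 73.35, 80.08 and 76.47 CPM in the Msi2 knockdown (0.64 ± 0.07, adjusted p = 1.8e-06) and 64.73, 66.77 and 67.48 CPM in the double knockdown (0.43 ± 0.07, adjusted p = 5.6e-05), above control in all 9 libraries. OS9, DERL1, SYVN1 and EDEM2 rose in the Msi1 knockdown by 0.31, 0.30, 0.24 and 0.22. The ligase SYVN1 (-0.24), EDEM3 (-0.24) and HERPUD1 (-0.16), a scaffold of the ligase complex, fell in the double knockdown. None of the 3 was called when trend-adjusted, at 0.05 for SYVN1 (adjusted p = 0.569), 0.01 for EDEM3 (0.9) and -0.16 for HERPUD1 (0.0664). Length-corrected, SYVN1 and EDEM3 were not called in the double knockdown and HERPUD1 was. Leaving out a single library ended the calls of DERL1 (adjusted p up to 0.0561), SYVN1 (up to 0.137) and EDEM2 (up to 0.0886) in the Msi1 knockdown, without control replicate 1 or Msi1 replicate 2 among others, and those of SYVN1 (up to 0.124), EDEM3 (up to 0.14) and HERPUD1 (up to 0.0862) in the double knockdown, without control replicate 2 among others. DERL2 was not called in any comparison with control, nor was DERL3 at its few counts. In the Msi2 knockdown EDEM3 (0.20, adjusted p = 0.0156) and HERPUD1 (0.16, adjusted p = 0.0474) passed as higher in the fit with the replicate number as a block.

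Without the trend score the 2 translocon subunits were not called in either single knockdown, and they moved apart in the double knockdown. In the Msi1 knockdown SEC61B was called when trend-adjusted, and SEC61A1 was called without Msi1 replicate 1. SEC61A1, the channel-forming subunit, measured 505.8, 535.6 and 486.4 CPM in control, 498.2, 599.3 and 607.5 CPM in the Msi1 knockdown and 468.9, 523 and 480.1 CPM in the Msi2 knockdown. It fell to 429.6, 408.9 and 436.9 CPM in the double knockdown (log2 -0.26 ± 0.08, adjusted p = 0.00889). SEC61B, a small subunit, measured 41.06, 39.14 and 43.77 CPM in control, 50.35, 43.23 and 42.38 CPM in the Msi1 knockdown and 36.29, 33.53 and 41.99 CPM in the Msi2 knockdown. It rose to 59.03, 53.66 and 50.64 CPM in the double knockdown (0.41 ± 0.09, adjusted p = 6.6e-04). Both differences lay outside the control range, and neither was called when trend-adjusted (SEC61A1 -0.07, adjusted p = 0.387, and SEC61B 0.13, adjusted p = 0.146).

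**Figure D4:**
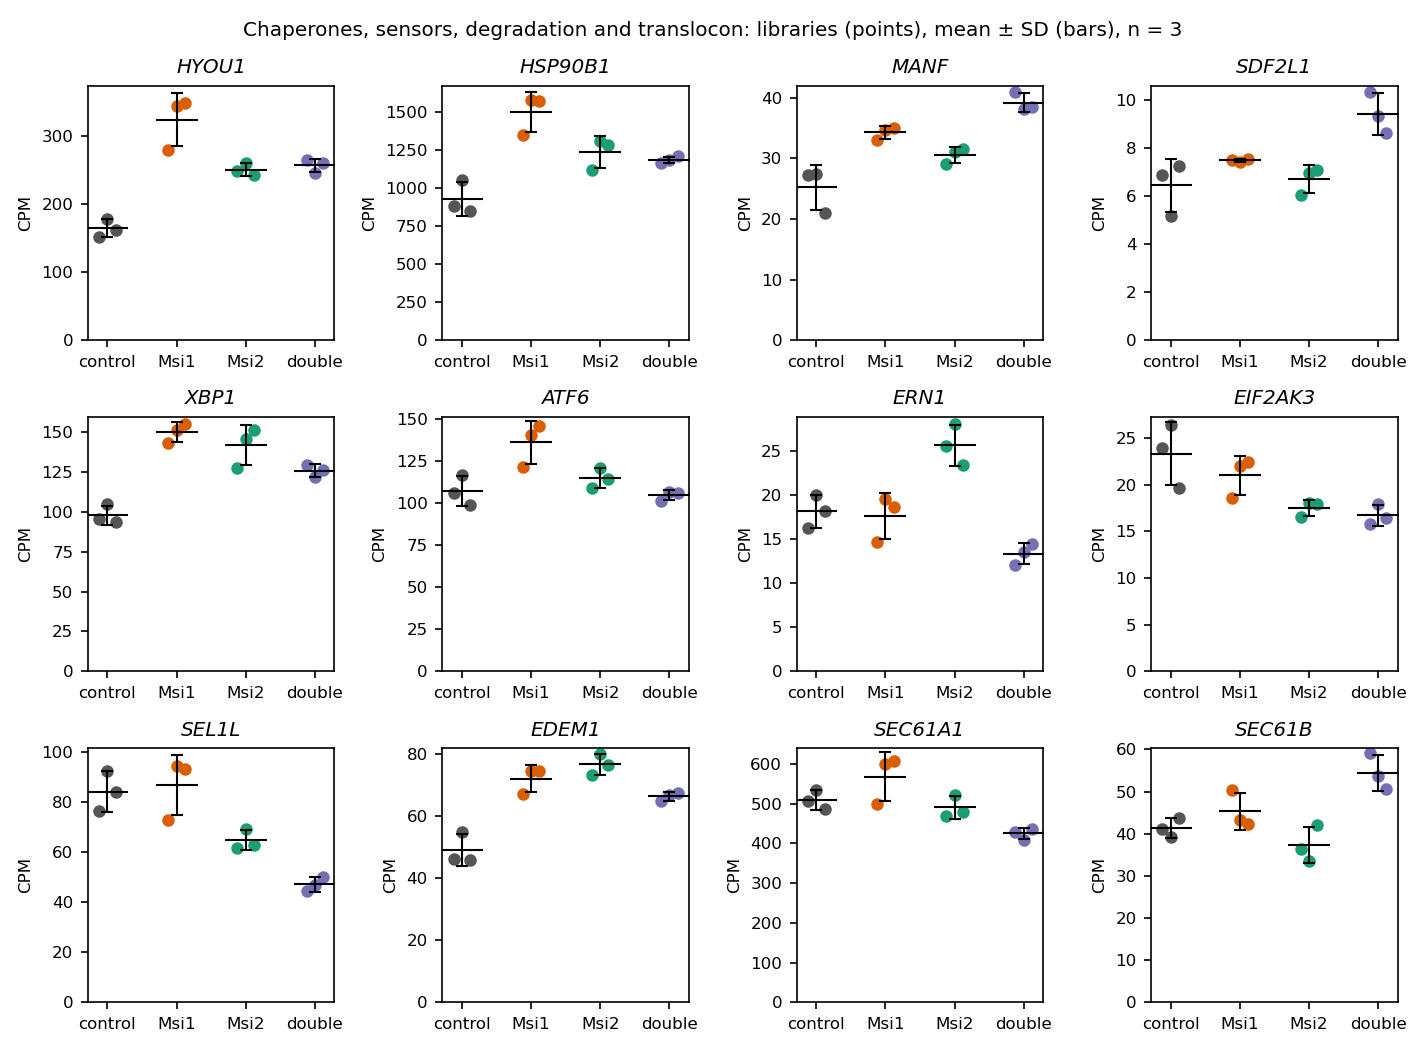
Level in CPM (vertical axis, from 0) of 2 chaperones, 2 partners of BiP, the sensors and XBP1, 2 degradation genes and the 2 translocon subunits in each library, with mean ± SD bars (n = 3). HYOU1, HSP90B1, XBP1 and EDEM1 lie above control in every knockdown library, while SEL1L is lowest in the double knockdown.

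Compared directly, 19 of the 40 genes were lower and 3 higher in the Msi2 than in the Msi1 knockdown, with a median log2 difference of -0.20, beside 18.9% of all genes lower and 22.3% higher (41.1% called). The 3 higher genes were TXNDC5, ERN1 (0.54 ± 0.10, adjusted p = 2.7e-04) and DNAJB9 (0.35 ± 0.08, adjusted p = 0.00103). CRELD2 (-0.54 ± 0.08, adjusted p = 1.3e-05), SEL1L (-0.42 ± 0.09), PPIB (-0.40 ± 0.07) and ERP44 (-0.40 ± 0.07) were among those lower in the Msi2 knockdown. The count of lower genes was 9 without Msi2 replicate 1 (32.2% of all genes called) and 11 without Msi1 replicate 2 (31.8%). Trend-adjusted, 16 were lower and 5 higher (47.9% of all genes called), and length-corrected 21 and 3 (42.7%). In the double against the Msi1 knockdown 32 genes were lower and 4 higher (median -0.29), beside 26.2% and 29.9% of all genes (56.0% called). The 4 higher genes were TXNDC5, SEC61B, SDF2L1 and MANF, all 4 lost without double replicate 1 (adjusted p = 0.172, 0.0781, 0.0724 and 0.125), and DERL3 was furthest down (-1.24 ± 0.49, adjusted p = 0.039), a call at 2 to 10 counts per library that was lost without double replicate 1 or 3 or Msi1 replicate 2 or 3 (adjusted p = 0.128, 0.117, 0.113 and 0.12). SEL1L followed (-0.88 ± 0.09, adjusted p = 1.2e-06). Trend-adjusted, 5.05% of all genes were called, and of the members SEL1L alone was lower and none was higher. Length-corrected, 33 were lower and 1 higher (56.5%). In the double against the Msi2 knockdown 17 genes were lower and 4 higher (median -0.15), beside 22.5% and 22.7% (45.2% called). Here TXNDC5 (-1.51 ± 0.09) and ERN1 (-0.95 ± 0.10, adjusted p = 1.4e-06) were furthest down, and SEC61B (0.55), SDF2L1 (0.49), CRELD2 (0.40) and MANF (0.36) were higher. Trend-adjusted, 18.6% of all genes were called, with 5 members lower and 5 higher, and length-corrected 44.0%, with 16 lower and 4 higher.

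Non-additivity subtracts both single-knockdown log2 changes from that of the double knockdown. It was called below 0 for 32 of the 40 genes and called above 0 for 1, with a median of -0.50. Of all genes tested 19.1% were called below 0 and 21.3% above (40.3% called), with a median of 0.01. For these 32 genes the double knockdown lay below the sum of the single changes. All 7 chaperones and all 8 isomerases other than TXNDC5 were called below 0 (medians -0.52 and -0.64), led by PDIA5 (-1.05 ± 0.11, adjusted p = 2.9e-06), HYOU1 (-0.94 ± 0.11, adjusted p = 1.1e-05) and HSP90B1 (-0.75 ± 0.13, adjusted p = 2.7e-04). TXNDC5 was the isomerase that was not called (0.30 ± 0.13, adjusted p = 0.0731), and it passed without Msi1 replicate 2 (adjusted p = 0.0281). Trend-adjusted, 8 members were called below 0 and none above (HYOU1, PDIA5, PDIA6, TXNDC11, ERP29, XBP1, HERPUD1 and EDEM1), beside 4.31% of all genes called, and the members' median was -0.20. The change in the double knockdown also varied across genes with the annotated length of their longest transcript. Across 14913 genes with a length the Spearman correlation of the change against control with length was -0.21. Across the 40 members it was -0.57, as a description over genes that share the same libraries. For non-additivity it was -0.18 over all genes and -0.25 over the members. Length-corrected, 31 members were called below 0 and none above, beside 40.5% of all genes called.

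**Figure D5:**
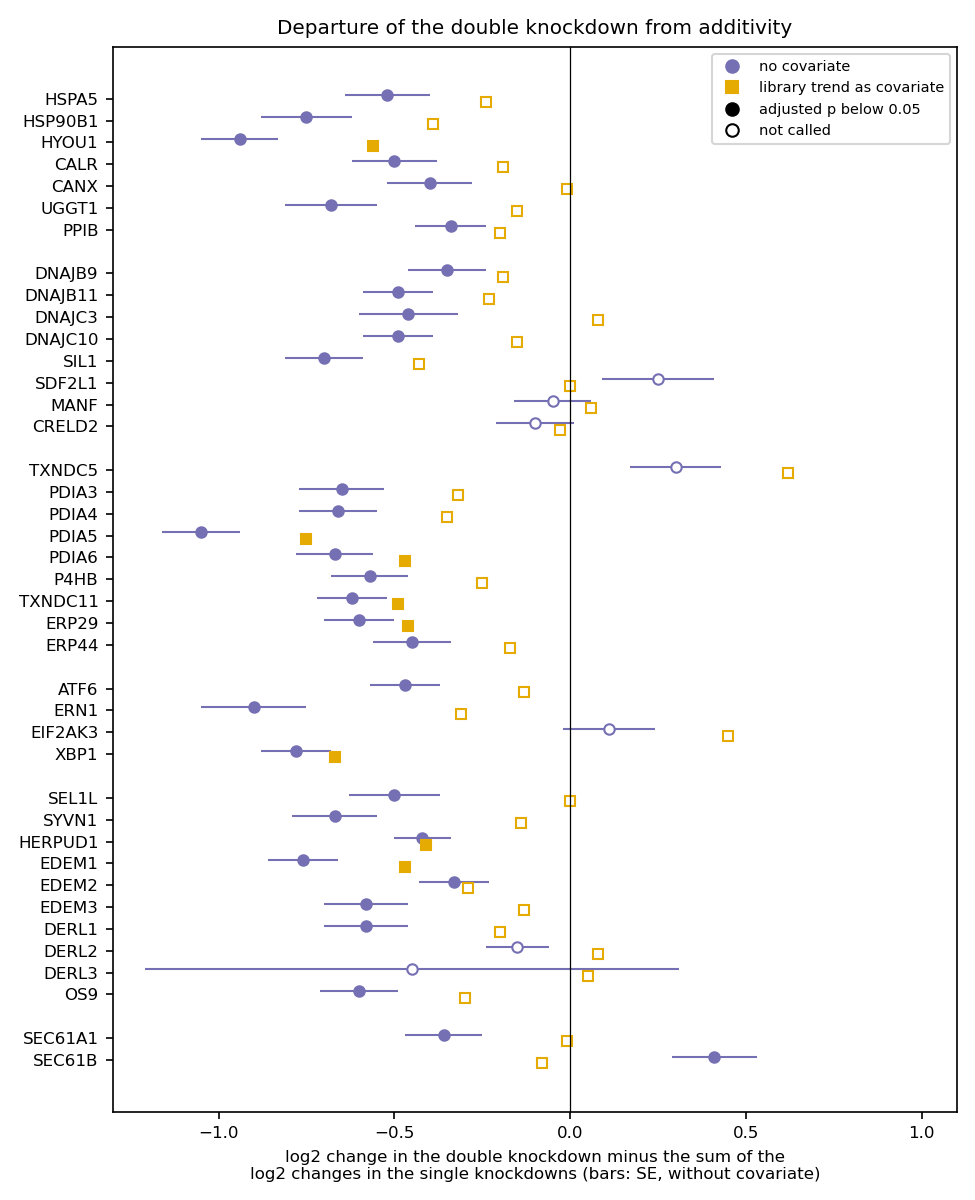
Departure of the double knockdown from the sum of the single knockdowns (log2, horizontal axis) for the 40 genes without a covariate (circles ± SE) and in the trend-adjusted fit (squares); filled symbols have an adjusted p below 0.05. Most circles lie left of 0, PDIA5 at -1.05 being furthest, and 8 squares are filled.

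The neighbouring pathway genes were read from the same fit, without the trend score, from lists that hold none of the 40 genes. Each list's share called is to be set beside the 39.3%, 30.3% and 51.9% of all genes called in the Msi1, Msi2 and double knockdown. Of 15 tested genes of thiol oxidation and other thioredoxin-fold proteins, 11 rose and none fell in the Msi1 knockdown (median log2 change 0.38), 8 rose and 1 fell in the Msi2 knockdown (0.23), and 5 rose and 3 fell in the double knockdown (0.06). The shares called were 73.3%, 60% and 53.3%, the last near that of all genes. ERO1A, the oxidase that recharges P4HB, rose in all 3 (1.21 ± 0.08, 0.88 ± 0.08 and 0.84 ± 0.08, adjusted p = 4.3e-10, 9.0e-08 and 5.2e-08). Of 13 genes of glycan trimming, lectins and proline isomerases, 8 rose and 1 fell in the Msi1 knockdown, 5 rose and 4 fell in the Msi2 knockdown, and 4 rose and 3 fell in the double knockdown, or 69.2%, 69.2% and 53.8% called, the last again near that of all genes. The median log2 changes of this list were 0.32, 0.09 and -0.14, and its lowest were -0.69, -0.74 and -0.92. GANAB, the catalytic subunit of glucosidase II, rose in all 3 (1.15 ± 0.09, 0.99 ± 0.08 and 0.68 ± 0.08, adjusted p = 4.0e-09, 8.6e-08 and 2.2e-06). Of 23 further genes of endoplasmic reticulum degradation, 11 rose and 3 fell, 6 rose and none fell, and 8 rose and 3 fell in the same order, with ERLIN1 up by 0.74, 0.95 and 0.71. Their shares called were 60.9%, 26.1% and 47.8%, the last 2 near those of all genes. The median log2 changes of these 23 genes were 0.22, 0.11 and 0.03, and the lowest were -0.26, -0.13 and -0.66.

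Of 30 genes of translocation, signal peptidase and N-glycosylation, 21 rose and 4 fell in the Msi1 knockdown (median log2 change 0.26), 7 rose and 2 fell in the Msi2 knockdown (0.07), and 9 rose and 3 fell in the double knockdown (0.07). The shares called were 83.3%, 30% and 40%, near that of all genes in the Msi2 knockdown and below it in the double knockdown. SSR3, a subunit of the translocon-associated complex, rose by 0.64, 0.33 and 0.55. Among 22 genes of export from and retrieval to the endoplasmic reticulum, 11 rose and 7 fell in the Msi1 knockdown, 9 rose and 2 fell in the Msi2 knockdown, and 7 rose and 4 fell in the double knockdown, or 81.8%, 50% and 50% called, the last near that of all genes. The COPII coat gene SEC24A rose in all 3 (0.89, 0.39 and 0.81), while its partner SEC23A fell in the Msi1 knockdown (-0.85 ± 0.07, adjusted p = 8.1e-09), rose in the Msi2 knockdown (0.21) and fell in the double knockdown (-0.18). Of 12 tested genes of sensor processing and the PERK branch, 4 rose and 1 fell, 6 rose and none fell, and 6 rose and 4 fell in the same order, or 41.7%, 50% and 83.3% called, the first near that of all genes. TRIB3, a target of the PERK branch, rose by 0.73, 0.51 and 0.84. The plasma cell marker SDC1, also made by epithelial cells, was the only one of its list above 1 CPM in any library (40.44 to 64.13 CPM), and the fibroblast-list genes COL1A2 and COL3A1 were present (285.5 to 486.2 and 198.5 to 413.6 CPM) while COL1A1, DCN and LUM were under 2 CPM. Of these 5 fibroblast-list genes 1 rose and 1 fell in each single knockdown, and 1 rose and 2 fell in the double knockdown (median log2 changes 0.01, -0.36 and -0.34 for Msi1, Msi2 and double). COL3A1 rose in all 3 knockdowns (0.77, 0.70 and 0.37), COL1A2 fell in the Msi1 and double knockdown (-0.25 and -0.49), and DCN fell in the Msi2 and double knockdown (-1.16 and -1.53). The part of such differences in the results was not tested.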

How the data were processed

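RNA was sequenced from 12 libraries of sorted MIA PaCa-2 cells, 4 groups of 3 named by the sample titles. The deposited values are estimated counts per gene, given by the authors as unscaled whole numbers. The submitters' processing notes name kallisto 0.42.1, CASAVA 1.4 and build hg19 without roles; not given in the sources used here were the transcript set and strand setting. Kallisto splits reads shared by similar transcripts with a model.

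Counts were tested as deposited with edgeR 4.0.16 (R 4.3.3): filterByExpr by group (minimum count 10), TMM, 1 robust quasi-likelihood model over all 12 libraries with 8 residual degrees of freedom, and two-sided p-values adjusted over 15021 genes by Benjamini-Hochberg (threshold 0.05). The SE is the log2 change divided by the square root of F. The procedure was tested on simulated data. CPM is per TMM-scaled total. The TXNDC5 ratio was compared by exact permutation. Lengths are of the longest GENCODE transcript. Full values are given for the isomerases, the sensors and XBP1, and the 2 members of each other role with the largest called change against control. Of each pathway list up to 3 genes of smallest p could be named; the collagen, SDC1 and other marker genes come from marker lists. The members, lists and tests were chosen with earlier results of these data known. Alternatives were DESeq2 1.42.0, upper-quartile factors, other filters (none, minimum count 50), the compared groups only, a replicate block, thinning to the smallest total, the library trend as a covariate, a length correction and leaving out each library. Same-numbered replicates deviated together in 1 of the 6 pairs of groups, control and Msi2 knockdown (correlations 0.18, 0.68 and 0.41), so for that comparison the value with a replicate block is printed where it changes a call. No label pairs the replicates, and agreement in 1 of the 6 pairs of groups does not show that they pair. In the other 5 at least 1 correlation was below 0.1 (-0.54 to 0.70), and they were not treated as paired.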

Additional observations from a re-analysis of the deposited data

Results flagged for a closer look

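For 33 of the 40 genes the change in the double knockdown differed from the sum of the single knockdowns by the interaction test of edgeR (adjusted p below 0.05 over all genes), which is what brings them here. Of all genes tested 40.3% were called. Chaperones departed from additivity on the log2 scale as follows: HSPA5 -0.52, HSP90B1 -0.75, HYOU1 -0.94, CALR -0.50, CANX -0.40, UGGT1 -0.68, PPIB -0.34. Among the co-chaperones and partners of BiP the values were DNAJB9 -0.35, DNAJB11 -0.49, DNAJC3 -0.46, DNAJC10 -0.49, SIL1 -0.70. The isomerases other than TXNDC5 gave PDIA3 -0.65, PDIA4 -0.66, PDIA5 -1.05, PDIA6 -0.67, P4HB -0.57, TXNDC11 -0.62, ERP29 -0.60, ERP44 -0.45. The sensors and XBP1 gave ATF6 -0.47, ERN1 -0.90, XBP1 -0.78. The degradation genes gave SEL1L -0.50, SYVN1 -0.67, HERPUD1 -0.42, EDEM1 -0.76, EDEM2 -0.33, EDEM3 -0.58, DERL1 -0.58, OS9 -0.60. The translocon gave SEC61A1 -0.36, SEC61B 0.41, SEC61B being the 1 value above 0. In the trend-adjusted fit 8 of these genes were still called, beside 4.31% of all genes called. The double knockdown libraries do not overlap with the others on that trend, so the trend and the knockdown cannot be told apart.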

How the results depend on the processing

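The direction and call of the TXNDC5 falls in the Msi1 and double knockdown held under every alternative run, and the ratio of TXNDC5 to the other isomerases kept its sign in all 6 pairs. With the trend score as covariate all-gene counts were 759 for double against Msi1 (from 8419), 2787 for double against Msi2 (from 6792) and 648 for non-additivity (from 6058). The members lower were then 1 for double against Msi1, 5 for double against Msi2, 3 for double against control, 8 for non-additivity and 3 for Msi1 against control. Members higher were 0 for double against Msi1, 0 for non-additivity and 5 for Msi2 against Msi1. Under this covariate signs reversed for SYVN1 (0.05) and EDEM3 (0.01) in double against control, and for HYOU1 (0.02), DNAJB11 (0.01), DNAJC3 (0.14), SIL1 (0.06), PDIA4 (0.04), PDIA5 (0.03), ERN1 (0.15), EDEM3 (0.04) and SEC61B (-0.18) in double against Msi1. In double against Msi2 they reversed for CANX (0.02), UGGT1 (0.00), DNAJC3 (0.02), DNAJC10 (0.01) and SEC61A1 (0.02), and in non-additivity for DNAJC3 (0.08) and SEC61B (-0.08). The length correction, chosen after seeing the data, reversed DNAJC10 in double against control (0.17), Msi1 (0.03) and Msi2 (0.09), and left 1 member higher in double against Msi1 and 0 in non-additivity. Members higher in double against Msi1 were 2 with upper-quartile factors, 2 with the stricter filter and 1 with thinned libraries, from 4. Of all genes 55.1%, 60.9% and 48.2% were called in these fits. Members lower in double against control were 14 with upper-quartile factors, from 9, beside 51.4% of all genes called. The cause of these changes was not tested.

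Leaving out 1 library at a time gave 3013 to 4249 genes for Msi2 against control (3013 without control replicate 1), with 12 to 20 members higher (12 without control replicate 1 or 3). For Msi1 against control it gave 23 to 30 members higher. The 23 came without control replicate 1 or Msi1 replicate 2 (28% and 30.4% of all genes called). The 30 came without Msi1 replicate 1 (40.6%), which added CANX, DNAJC3, EDEM3 and SEC61A1. Members lower numbered 1 to 2 for Msi1 against control (2 without control replicate 3, with 33% of all genes called) and 9 to 23 for Msi2 against Msi1. The 9 came without Msi2 replicate 1 (32.2% of all genes called) and the 23 without Msi1 replicate 1 (41.6%). Members higher were 0 to 3 in double against Msi1 (0 without double replicate 1) and 1 to 2 for non-additivity (2 without control replicate 2 or Msi1 replicate 2). Of all genes 46.1%, 42.1% and 28.7% were called in these 3 fits. With the replicate block the members higher and lower were 26 and 1 for Msi1, 21 and 2 for Msi2 and 17 and 13 for double against control, and 2 and 32 for non-additivity, where TXNDC5 was called (0.31, adjusted p = 0.0457). Of all genes 42.2%, 33.1%, 54.4% and 43.6% were called in that order. Between control and the Msi2 knockdown, whose same-numbered replicates deviated together though no label pairs them, the block changed the calls of DNAJC10, HERPUD1 and EDEM3. It changed the call of no other member there. Non-additivity needs all 4 groups, so a fit of the compared groups alone is the same fit. The 2 to 10 counts of DERL3 limit what can be seen for it.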
